A study of Mus musculus with 12 samples.

Results

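The neuromuscular synapse genes described here are 10 genes of the muscle side of the nerve-muscle contact: the acetylcholine receptor subunits Chrna1, Chrnb1, Chrnd, Chrng and Chrne, and the synapse organisers Musk, Rapsn, Dok7, Agrn and Lrp4. They were taken by name, and every probe whose transcript accession belongs to one of them was used, which gave 12 of the 39429 probes on the array. Chrna1 and Agrn have 2 probes each and the other genes have 1. All 10 genes were among the 24573 genes kept, so none was lost to the filter on dim probes, and Chrne passed it through the plasmid groups alone. They were measured in C2C12, a mouse myoblast cell line that can be brought to fuse into myotubes in culture, on 12 single-colour Agilent arrays. All cells were in serum medium and RNA was taken 72 h after transfection. The 4 groups had 3 arrays each: siRNA, pcDNA3.1-MEG3, the plasmid pcDNA3.1, and a negative control whose reagent the labels do not name. The labels call siRNA a MEG3 knockdown and pcDNA3.1-MEG3 a MEG3 overexpression. Sample titles call the pcDNA3.1 group pat1 and do not explain the term. Meg3 is an imprinted long noncoding RNA. No group was untransfected, and all come from 1 cell line.

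The muscle acetylcholine receptor is a pentamer that opens a cation channel when acetylcholine binds. The embryonic form holds a gamma subunit (Chrng), which an epsilon subunit (Chrne) replaces in adult muscle, beside the alpha (Chrna1), beta (Chrnb1) and delta (Chrnd) subunits. Agrin (Agrn) released by the nerve binds Lrp4, which activates the receptor tyrosine kinase MuSK (Musk). Dok7 activates MuSK from inside the cell, and rapsyn (Rapsn) anchors the receptors in clusters. In muscle cells several subunit genes are known to be switched on during differentiation by MyoD family factors, which bind E-boxes. At the synapse, ETS factors such as GABP are known to act through an N-box.

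Promoters are shown for the receptor subunits that the reference table holds and for Musk, because these are the genes on which E-boxes and N-boxes are best known. They are the RefSeq sequences of build GRCm38.p6, 250 bases before to 50 bases after the transcription start, written 5′ to 3′ on the gene's strand. The array files name another build, so no array coordinates are printed. The table held promoters for 7 of the 10 genes, 9 in all, and had no entry for Chrnd, Rapsn or Lrp4. Capitals mark matches to the E-box CANNTG, or to the N-box CCGGAA searched on both strands. CAGCTG is a form of CANNTG, and both are their own reverse complement.
Chrna1, chr2:73580289-73580588, minus strand: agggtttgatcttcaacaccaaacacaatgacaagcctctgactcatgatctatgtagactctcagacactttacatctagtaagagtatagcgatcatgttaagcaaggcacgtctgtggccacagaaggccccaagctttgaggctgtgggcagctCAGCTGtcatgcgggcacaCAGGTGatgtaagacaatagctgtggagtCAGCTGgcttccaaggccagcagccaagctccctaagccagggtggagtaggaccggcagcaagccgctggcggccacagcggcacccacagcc
Chrnb1, chr11:69795888-69796187, minus strand: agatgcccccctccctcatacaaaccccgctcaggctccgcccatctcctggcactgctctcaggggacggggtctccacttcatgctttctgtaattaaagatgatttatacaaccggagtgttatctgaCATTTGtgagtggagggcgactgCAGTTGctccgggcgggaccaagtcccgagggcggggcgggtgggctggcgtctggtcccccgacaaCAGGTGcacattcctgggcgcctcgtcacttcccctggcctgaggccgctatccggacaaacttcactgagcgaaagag
Chrng, chr1:87205561-87205860, plus strand: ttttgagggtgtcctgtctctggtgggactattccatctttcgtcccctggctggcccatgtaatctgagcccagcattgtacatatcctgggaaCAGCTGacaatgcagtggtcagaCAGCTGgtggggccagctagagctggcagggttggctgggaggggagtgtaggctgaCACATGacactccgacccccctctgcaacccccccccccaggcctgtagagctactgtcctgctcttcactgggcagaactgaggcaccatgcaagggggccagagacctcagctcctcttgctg
Chrne, chr11:70619145-70619444, minus strand: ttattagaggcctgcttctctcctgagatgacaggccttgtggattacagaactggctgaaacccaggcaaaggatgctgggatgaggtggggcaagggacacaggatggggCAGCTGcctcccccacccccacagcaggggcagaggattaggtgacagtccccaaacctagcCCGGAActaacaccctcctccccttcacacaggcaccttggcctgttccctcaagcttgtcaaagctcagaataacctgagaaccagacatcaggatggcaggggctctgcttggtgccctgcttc
Musk, chr4:58285712-58286011, plus strand: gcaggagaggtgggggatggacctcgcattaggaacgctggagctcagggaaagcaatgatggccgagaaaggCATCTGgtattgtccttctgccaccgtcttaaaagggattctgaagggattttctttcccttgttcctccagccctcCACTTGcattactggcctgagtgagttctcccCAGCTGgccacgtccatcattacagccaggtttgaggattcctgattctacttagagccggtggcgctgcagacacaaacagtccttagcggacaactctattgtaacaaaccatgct

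Chrna1 holds 3 E-boxes, which begin 92, 73 and 44 bases before the start, and the outer ones have the form CAGCTG. Chrnb1 also holds 3, at 119, 96 and 29 bases before the start, with 0 of that form. Chrng holds 3, of which 2 are CAGCTG, at 155 and 132 bases before the start. Chrne holds 1 CAGCTG at 138 bases before the start and the N-box CCGGAA at 76 bases before it, the one N-box match among the 9 promoters. Musk holds 3 E-boxes and 1 of them is CAGCTG. Dok7 has 1 E-box in 1 of its 2 promoters, and so has Agrn. Among all 32851 promoters in the table, 72.3% hold CANNTG, 16.3% hold CAGCTG and 14.9% hold CCGGAA, so E-boxes of the open form are common in windows of this length. A match is a run of letters and not a measured binding site.

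**Figure D1:**
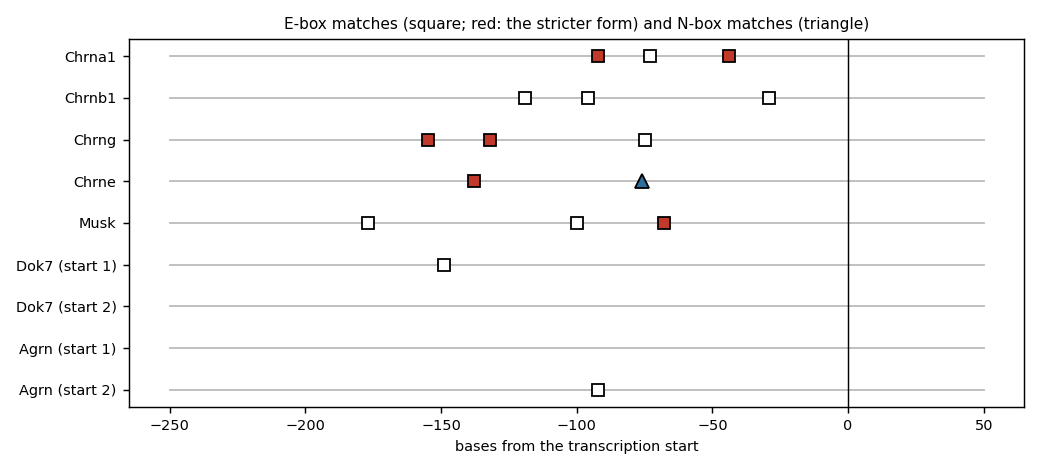
Positions of E-box and N-box matches in the 9 promoters of 7 genes, in bases from the transcription start (the first base of each match is plotted). Squares are CANNTG, red where the match is CAGCTG, and the triangle is CCGGAA; Chrna1, Chrnb1, Chrng and Musk have 3 squares each and Chrne has the one triangle.

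Values are given as scaled log2 signal, the log2 of the processed signal minus the 75th percentile of that array, so that 1 unit is a 2-fold difference and negative values lie below that percentile. Probes differ in brightness for reasons of design, so levels are compared between groups and never between genes. Between 62.0% and 75.9% of probes were well above background on an array, and the number of arrays limits the precision. The labels do not say whether replicates were separate cultures, and p-values therefore describe the spread of these samples, part or all of which may be technical. Replicates 1 and 3 of each group differed by less than the noise between repeat spots and were counted as 1 sample, which leaves 8 samples, 2 a group. In the negative control they had different slide positions, so there separate hybridisations were counted as 1 sample. Replicate 2 of the negative control stood apart from the other negative control arrays, with a spread of log2 differences 4.07 and 3.69 times the spot noise. The negative control, the plasmid groups and the siRNA group were scanned in separate sessions. They were taken to be on separate slides, which the labels do not state. Scan session or slide and group therefore cannot be told apart except between the plasmid groups. Meg3, the gene named in the labels, did not follow them on the plasmid arrays. The scanner marked its brightest probe as detected over background on 0 of 3 siRNA arrays, 0 of 3 arrays labelled pcDNA3.1-MEG3, 3 of 3 labelled pcDNA3.1 and 1 of 3 of the negative control. It was at least 18.9-fold lower on the arrays labelled pcDNA3.1-MEG3 than on those labelled pcDNA3.1, which did not pass the test (adjusted p = 0.0841), another probe had the same pattern on the plasmid arrays, and its remaining probe was not detected on any of the 12. With siRNA against the negative control the brightest Meg3 probe differed by -0.62 and the next probe by 0.98. Neither passed the test (limma, adjusted p = 0.442 and 0.397). Both were near background in these groups, so these probes do not show the labelled knockdown. Groups are therefore named by their labels alone.

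**Figure D2:**
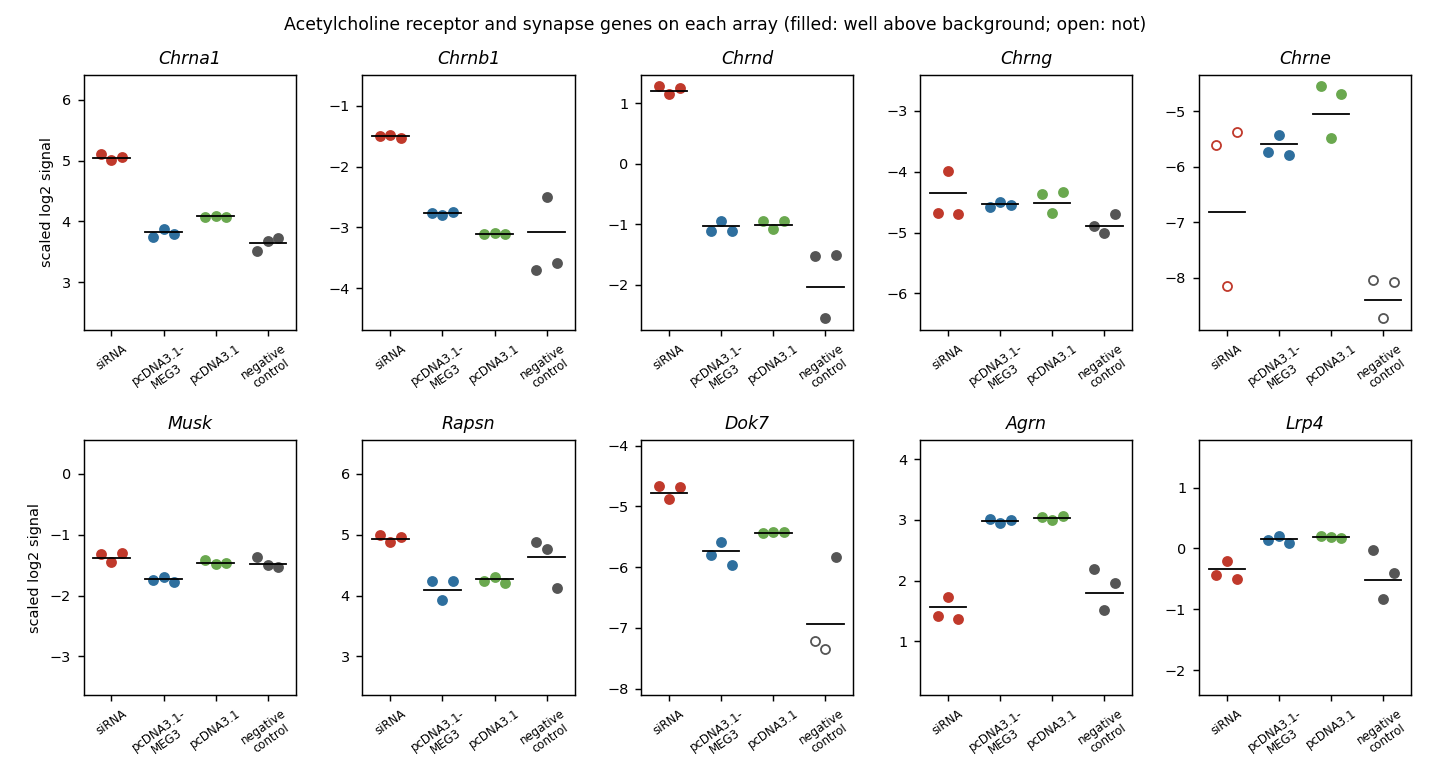
Scaled log2 signal (y axis) of the brightest probe of each gene on each of the 12 arrays, by group (x axis); filled points are well above background, open points are not, and lines are group means over 2 samples. Chrna1, Chrnb1 and Chrnd lie highest on the 3 siRNA arrays, Agrn lies highest on the plasmid arrays, and Musk differs little between groups.

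Chrna1, which carries the main acetylcholine binding surface, had 5.11, 5.01 and 5.07 on the siRNA arrays, 3.75, 3.88 and 3.80 on those labelled pcDNA3.1-MEG3, 4.08, 4.09 and 4.08 on pcDNA3.1, and 3.52, 3.68 and 3.73 in the negative control. Every siRNA array was above every other array. Its other probe had the same high group: it read 1.93 and 1.91 on siRNA arrays 1 and 3 (its spot on array 2 was an outlier and was dropped), 0.58, 0.58 and 0.54 on pcDNA3.1-MEG3, 0.73, 0.75 and 0.71 on pcDNA3.1, and 0.89, 0.49 and 0.82 in the negative control. The probes agree on which group is highest, and the 3 lower groups are in a different order on each.

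Chrnd, the delta subunit, had 1.28, 1.15 and 1.25 on the siRNA arrays, -1.10, -0.95 and -1.11 on pcDNA3.1-MEG3, -0.95, -1.08 and -0.94 on pcDNA3.1, and -1.53, -2.55 and -1.51 in the negative control. The siRNA arrays were again apart from all others, the plasmid groups overlapped each other, and the negative control was lowest on all 3 arrays. Chrnb1, the beta subunit, had -1.49, -1.48 and -1.53 on the siRNA arrays, -2.76, -2.79 and -2.74 on pcDNA3.1-MEG3, -3.11, -3.10 and -3.10 on pcDNA3.1, and -3.69, -2.50 and -3.59 in the negative control. Replicate 2 of the negative control was above both plasmid groups and its other arrays were below them, so the order of these 3 groups depends on that array.

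Chrng, the embryonic gamma subunit, was near the dim end of its detection in every group, although well above background on all 12 arrays. It had -4.68, -3.99 and -4.69 on the siRNA arrays, -4.58, -4.49 and -4.55 on pcDNA3.1-MEG3, -4.36, -4.68 and -4.33 on pcDNA3.1, and -4.89, -5.01 and -4.69 in the negative control. Replicate 2 of siRNA was the highest array, the other siRNA arrays lay within the range of the plasmid and negative control arrays or at its edge, and the negative control was at the low end. Chrne, the adult epsilon subunit, was well above background on all 6 plasmid arrays and on none of the 3 siRNA and 3 negative control arrays. It had -5.62, -8.16 and -5.36 on the siRNA arrays, -5.74, -5.42 and -5.79 on pcDNA3.1-MEG3, -4.54, -5.48 and -4.68 on pcDNA3.1, and -8.05, -8.74 and -8.09 in the negative control. On siRNA arrays 1 and 3 its signal was as high as on plasmid arrays without the mark of detection, so the siRNA level is only a bound. Chrnd and Chrng are neighbours on chromosome 1 with 0 protein-coding genes between them, and Chrnb1 and Chrne lie on chromosome 11 with 50 between them.

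Among the organisers, Dok7 had -4.67, -4.88 and -4.68 on the siRNA arrays, -5.80, -5.59 and -5.96 on pcDNA3.1-MEG3, -5.45, -5.43 and -5.42 on pcDNA3.1, and -7.21, -7.34 and -5.83 in the negative control. It was well above background on all arrays except negative control arrays 1 and 2. Replicates 1 and 3 of the negative control, counted as 1 sample, differed widely for this gene. Rapsn had 4.99, 4.88 and 4.97 on the siRNA arrays, 4.24, 3.93 and 4.24 on pcDNA3.1-MEG3, 4.23, 4.31 and 4.20 on pcDNA3.1, and 4.88, 4.76 and 4.13 in the negative control. Here negative control arrays 1 and 2 were near the siRNA arrays and array 3 was near the plasmid arrays.

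Musk, the kinase at the centre of receptor clustering, had -1.31, -1.45 and -1.30 on the siRNA arrays, -1.75, -1.70 and -1.78 on pcDNA3.1-MEG3, -1.42, -1.48 and -1.46 on pcDNA3.1, and -1.36, -1.50 and -1.54 in the negative control. The siRNA, pcDNA3.1 and negative control arrays overlapped and those labelled pcDNA3.1-MEG3 were lowest. Lrp4, the agrin receptor, had -0.43, -0.20 and -0.50 on the siRNA arrays, 0.14, 0.21 and 0.09 on pcDNA3.1-MEG3, 0.20, 0.19 and 0.16 on pcDNA3.1, and -0.02, -0.84 and -0.40 in the negative control. The plasmid arrays were above the other 6 arrays, and the negative control spanned the siRNA values.

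Agrn, whose muscle form is known to cluster receptors weakly compared with the nerve form, had 1.42, 1.74 and 1.37 on the siRNA arrays, 3.01, 2.95 and 3.00 on pcDNA3.1-MEG3, 3.05, 3.00 and 3.06 on pcDNA3.1, and 2.19, 1.52 and 1.96 in the negative control. All plasmid arrays were above all others. Its other probe was dim, well above background on 2 of 3 siRNA arrays, all 6 plasmid arrays and 1 of 3 negative control arrays. The array does not tell the nerve and muscle splice forms apart as far as the files annotate the probes.

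Comparing siRNA with the negative control asks how the group labelled a knockdown, where no loss of Meg3 was shown, differs in these genes. The alpha, beta and delta subunits and Dok7 were higher with siRNA, and the embryonic and adult subunits, Musk, Rapsn, Agrn and Lrp4 did not pass the test. That is 4 of 10 genes higher and 0 lower, where 12.4% of all 24527 genes tested were called in either direction, 7.75% higher and 4.65% lower (limma, Benjamini-Hochberg adjusted p under 0.05 over all genes). Chrnd rose by 3.24 ± 0.33 (SE) on the log2 scale, which is 9.46-fold (adjusted p = 0.0046). Chrna1 rose by 1.40 ± 0.13, or 2.63-fold (adjusted p = 0.0032), and its other probe, with 1 siRNA sample left, by 1.25 (adjusted p = 0.0305 over all probes). These changes are several times their errors, and all siRNA samples were above all negative control samples. Chrnb1 rose by 1.58 ± 0.35, or 2.98-fold (adjusted p = 0.0416). Dok7 rose by 2.15 ± 0.29, a fitted 4.45-fold (adjusted p = 0.0107), against a negative control where only 1 of 3 arrays had it well above background.

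Of the genes that did not pass, Musk differed by 0.10 (95% interval -0.22 to 0.42), Lrp4 by 0.19 (-0.38 to 0.77) and Agrn by -0.23 (-0.78 to 0.33). These intervals leave room for a modest change in either direction. Rapsn differed by 0.29 (-0.13 to 0.72) and Chrng by 0.56 (-0.09 to 1.20), and Chrne, not well above background in either group, gets no fold. Samples of the 2 groups did not overlap for 7 of the 10 genes, and they did not overlap for 49.7% of all genes. Among those 7, the single arrays of Chrng, Musk and Rapsn did overlap before replicates 1 and 3 were averaged. The median change over the 10 genes was 0.98, and 0.56 over the 9 without Chrne, against 0.06 over all genes. With only the siRNA and negative control samples in the fit, 0 of the 10 were called, with adjusted p between 0.0864 for Chrnd and 0.228 for Chrnb1. Chrnb1 was 2.15 higher without negative control replicate 2 and 1.01 higher without replicates 1 and 3 of that group, and its call ended without either siRNA sample (adjusted p = 0.0607 and 0.0870). It also ended with median centring (adjusted p = 0.0668), with no filter on dim probes (adjusted p = 0.0625) and with a replicate block (adjusted p = 0.0613), so that 6 of its 16 alternatives lost it. The Dok7 call ended with the hybridisation as a random block (adjusted p = 0.364) and with normexp background correction, which lowered its change to 0.91 (adjusted p = 0.0581).

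**Figure D3:**
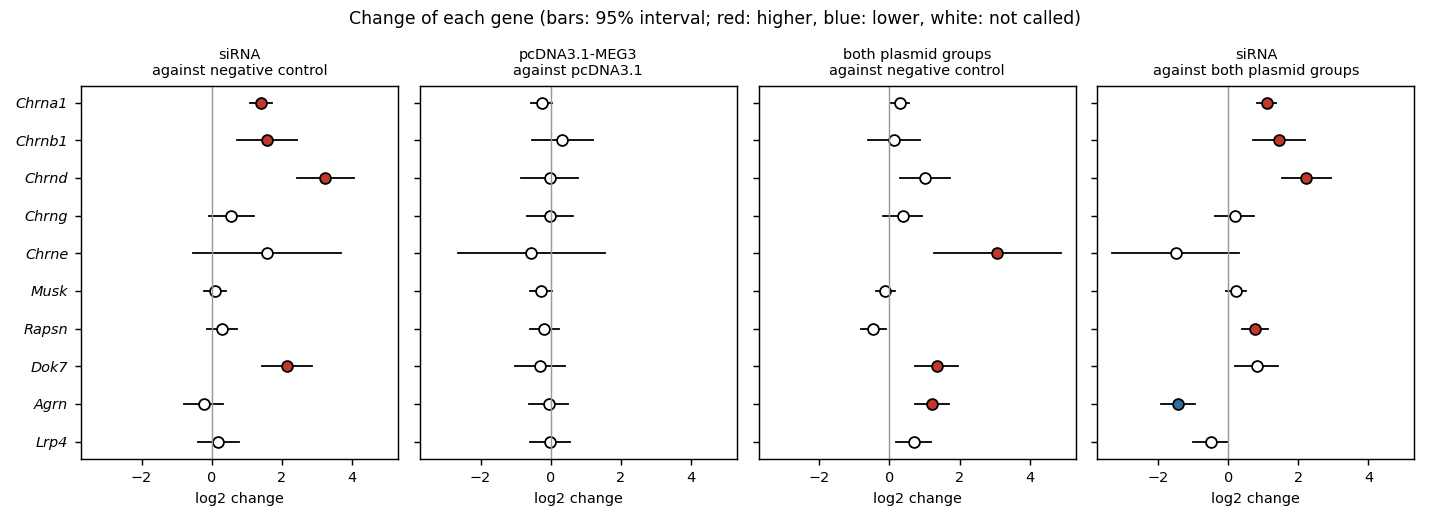
Log2 change (x axis) of each gene in the 4 comparisons, first-named group minus second; bars are 95% intervals, red marks genes called higher, blue genes called lower and white genes not called. With siRNA against the negative control 4 genes are red, between the plasmid groups none is coloured, and with siRNA against both plasmid groups 4 genes are red and Agrn is blue.

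Comparing pcDNA3.1-MEG3 with pcDNA3.1 asks what the labelled overexpression did, within what was taken to be 1 slide. None of the 10 genes was called, and 2 of 24565 genes tested were called, which is 0.00814%. At an unadjusted p under 0.05 the count over the 10 genes was also 0, against 2501 over all genes. The changes ran between -0.55 for Chrne (95% interval -2.65 to 1.55) and 0.33 for Chrnb1 (-0.54 to 1.20), with a median of -0.11, against -0.16 over all genes. Musk differed by -0.27 (-0.59 to 0.05) and Chrna1 by -0.26 (-0.57 to 0.05), and for both the arrays of the 2 groups did not overlap. Samples did not overlap for 4 of the 10 genes, and for 67.9% of all genes. When 12 arrays were counted as 12 samples both were called lower (2 of 10 genes). Replicate 3 of each plasmid group was taken as a second scan of the plasmid slide. This rests on its slide position and closeness to replicate 1, and the labels do not state it. With the second scan as a fixed term, and in the first scan alone, 0 were called. With all scan sessions of the 12 arrays as a random block Musk was called (adjusted p = 0.0495). In the second scan, with 1 array a group and no test, Musk differed by -0.32 and Chrna1 by -0.28.

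Comparing both plasmid groups with the negative control asks how the plasmid transfections, 1 of them labelled MEG3 overexpression, differ from that control. It shares the negative control samples with the siRNA comparison above. Agrn and Dok7 were higher in the plasmid groups, and Chrne was detected in the plasmid groups alone. That is 3 of 10 genes higher and 0 lower, where 21.8% of 24561 genes were called, 13.3% higher and 8.57% lower, so the share is not far from the background. Chrne was kept only because it is high in the plasmid groups, and without it 2 of 9 genes were called. Agrn rose by 1.21 ± 0.20, or 2.31-fold (adjusted p = 0.0120), with all 6 plasmid arrays above all 3 negative control arrays. Its dim probe differed by 1.19 with an interval of -0.99 to 3.37. Dok7 rose by 1.35 ± 0.25, a fitted 2.54-fold (adjusted p = 0.0174), again against a group with 1 of 3 arrays well above background. Its call ended in 7 of 18 alternatives: without any 1 plasmid sample (adjusted p between 0.0537 and 0.0683), with the hybridisation as a random block (adjusted p = 0.440), with negative control replicates 1 and 3 as 2 samples (adjusted p = 0.0961), and with normexp, which lowered its change to 0.37 (adjusted p = 0.235). Chrne was at least 2.58-fold higher (adjusted p = 0.0353), with measured means of -5.32 in the plasmid groups and -8.40 in the negative control. Its adjusted p was 0.0467 with no filter on dim probes, and its call ended in 8 of 18 alternatives (adjusted p up to 0.128). Such a bound sets the brighter group's mean against the dimmest signal marked well above background on each array of the dimmer group, or the probe's own signal where that is higher.

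Chrnd differed by 1.02 (adjusted p = 0.0544), Lrp4 by 0.70 (adjusted p = 0.0584), Rapsn by -0.46 (adjusted p = 0.0769) and Chrna1 by 0.30 (adjusted p = 0.102), and none passed the test. Samples did not overlap for 8 of 10 genes (7 of 9 without Chrne), and for 50.6% of all genes. Among those 8, the single arrays of Rapsn and Dok7 did overlap. The 10 genes had a median change of 0.54, and 0.38 without Chrne, against 0.18 over all genes. Leaving out either pcDNA3.1-MEG3 sample left 0 genes called, leaving out either pcDNA3.1 sample left 1, and leaving out negative control replicate 2, or 1 and 3, gave 5 and 6, while median centring gave 3 higher and 2 lower. Without negative control replicates 1 and 3, Chrnb1 was called lower in the plasmid groups (-0.43, adjusted p = 0.0147).

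Comparing siRNA with both plasmid groups asks how siRNA stands against the plasmid transfections, 1 of them labelled MEG3 overexpression. It shares the siRNA samples with the first comparison and the plasmid samples with the last. The alpha, beta and delta subunits and Rapsn were higher with siRNA and Agrn was lower. That is 4 genes higher and 1 lower of 10, where 18.7% of 24523 genes were called, 10.6% higher and 8.16% lower. Chrnd rose by 2.23 ± 0.29, or 4.68-fold (adjusted p = 0.0059), and Chrna1 by 1.09 ± 0.11, or 2.14-fold (adjusted p = 0.0026). The other Chrna1 probe, with 1 siRNA sample left, rose by 1.27 (adjusted p = 0.0160). Agrn fell by 1.43 ± 0.20 on the log2 scale, a 2.70-fold difference (adjusted p = 0.0071). For these 3 genes the call held under each of the 17 alternatives run. Chrnb1 rose by 1.44 ± 0.31, or 2.72-fold (adjusted p = 0.0269), and Rapsn by 0.75 ± 0.15, or 1.69-fold (adjusted p = 0.0219).

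The changes that did not pass were 0.80 for Dok7 (adjusted p = 0.0743), -0.51 for Lrp4 (adjusted p = 0.130), 0.22 for Musk (adjusted p = 0.197) and 0.18 for Chrng (adjusted p = 0.578). Chrne, not well above background on any siRNA array, did not pass the test either (adjusted p = 0.187). Its siRNA and plasmid samples overlapped, so it gets no fold. Samples did not overlap for 7 of 10 genes, and for 53.5% of all genes. The median change over the 10 genes was 0.49, and 0.75 without Chrne, against -0.11 over all genes. The Chrnb1 call ended without any 1 of the 6 samples (adjusted p between 0.0614 and 0.0919), and the Rapsn call without replicates 1 and 3 of siRNA or any 1 plasmid sample (adjusted p between 0.0539 and 0.0843) and with the hybridisation as a random block (adjusted p = 0.422).

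**Figure D4:**
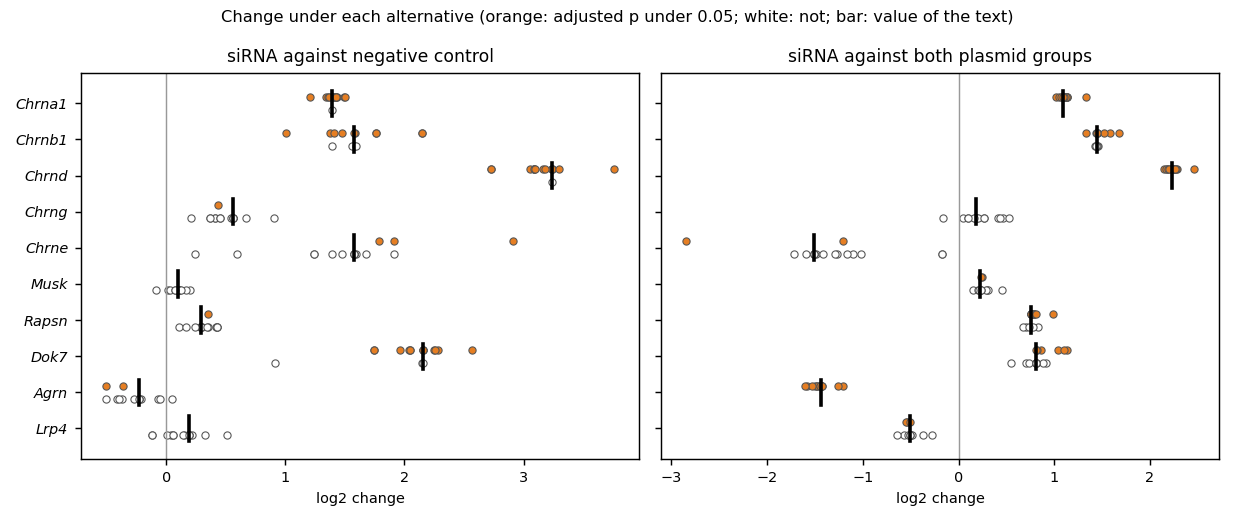
Log2 change (x axis) of each gene under every alternative setting, for siRNA against the negative control (left) and against both plasmid groups (right); orange points passed an adjusted p of 0.05, white points did not, and black bars are the values given in the text. Chrna1 and Chrnd stay well above 0 in both panels, and Agrn stays below 0 in the right panel and comes near 0 in the left.

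Over the 8 samples, Chrna1 and Chrnd correlated at 0.95 (Pearson r), Chrnd and Dok7 at 0.90, Agrn and Lrp4 at 0.91, and Agrn and Rapsn at -0.93. These describe how the group levels above run together, since the samples fall into groups and share scan sessions. The 5 genes most like Chrna1 over the 8 samples were Dennd4a, Vmn2r78, Clic3, Ctrb1 and Dll1, with r between 0.994 and 0.995, but 294 of 16403 genes compared had r above 0.95. The 5 genes most like Musk were Serf1, Uggt2, Ap3s1, Slc44a1 and Csf2rb, with r between 0.954 and 0.978, and 8 genes had r above 0.95. So many genes correlated this closely with Chrna1, and few with Musk.

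The partner genes of the synapse were taken from a list of 54 genes for the basal lamina, the dystroglycan complex, the cytoskeleton and kinases downstream of MuSK, neuregulin signalling and activity-dependent repression. Of these, 52 were kept. With siRNA against the negative control 8 of the 51 tested were higher and 2 were lower, with a median change of 0.19. These are 15.7% and 3.92%, against 7.75% and 4.65% of all genes, whose median change was 0.06. The highest was Hdac9, a class II histone deacetylase known to repress receptor genes in innervated muscle, which rose by 2.63 ± 0.24 (adjusted p = 0.0033). Colq, the collagen tail that holds acetylcholinesterase in the cleft, rose by 1.44 ± 0.24 (adjusted p = 0.0197). Camk2b, a calcium-dependent kinase, rose by 1.24, the intermediate filament gene Nes by 1.06 and the Src family kinase Fyn by 0.95.

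Dok1, a docking protein of the same family as Dok7, fell by 1.58 ± 0.17 on the log2 scale (adjusted p = 0.0050). Ache, the esterase that ends the acetylcholine signal, was not well above background on any siRNA array and was at least 1.63-fold lower than in the negative control (adjusted p = 0.0257). Colq and Ache thus went in opposite directions. None of the 52 genes was called between the plasmid groups, where 0.00814% of all genes were called. In the plasmid groups against the negative control, Fyn rose by 0.90 and 7 genes were lower, among them Camk2b at -1.16 and the dystroglycan gene Dag1 at -0.80. That is 1.92% higher and 13.5% lower, against 13.3% and 8.57% of all genes.

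With siRNA against both plasmid groups 10 of 51 partner genes were higher and 3 were lower, which is 19.6% and 5.88%, against 10.6% and 8.16% of all genes. Hdac9 rose by 2.69 and Camk2b by 2.40. Dok1 differed by -1.63. The kinase Src and Ache were not well above background on any siRNA array. Src was at least 1.15-fold lower (adjusted p = 0.0214) and Ache at least 1.24-fold lower (adjusted p = 0.0298). Src passed the filter on dim probes through the plasmid groups alone, so its place among the 3 lower genes rests in part on that filter. Fyn, which was higher with siRNA and in the plasmid groups when each was set against the negative control, was not among the genes called.

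**Figure D5:**
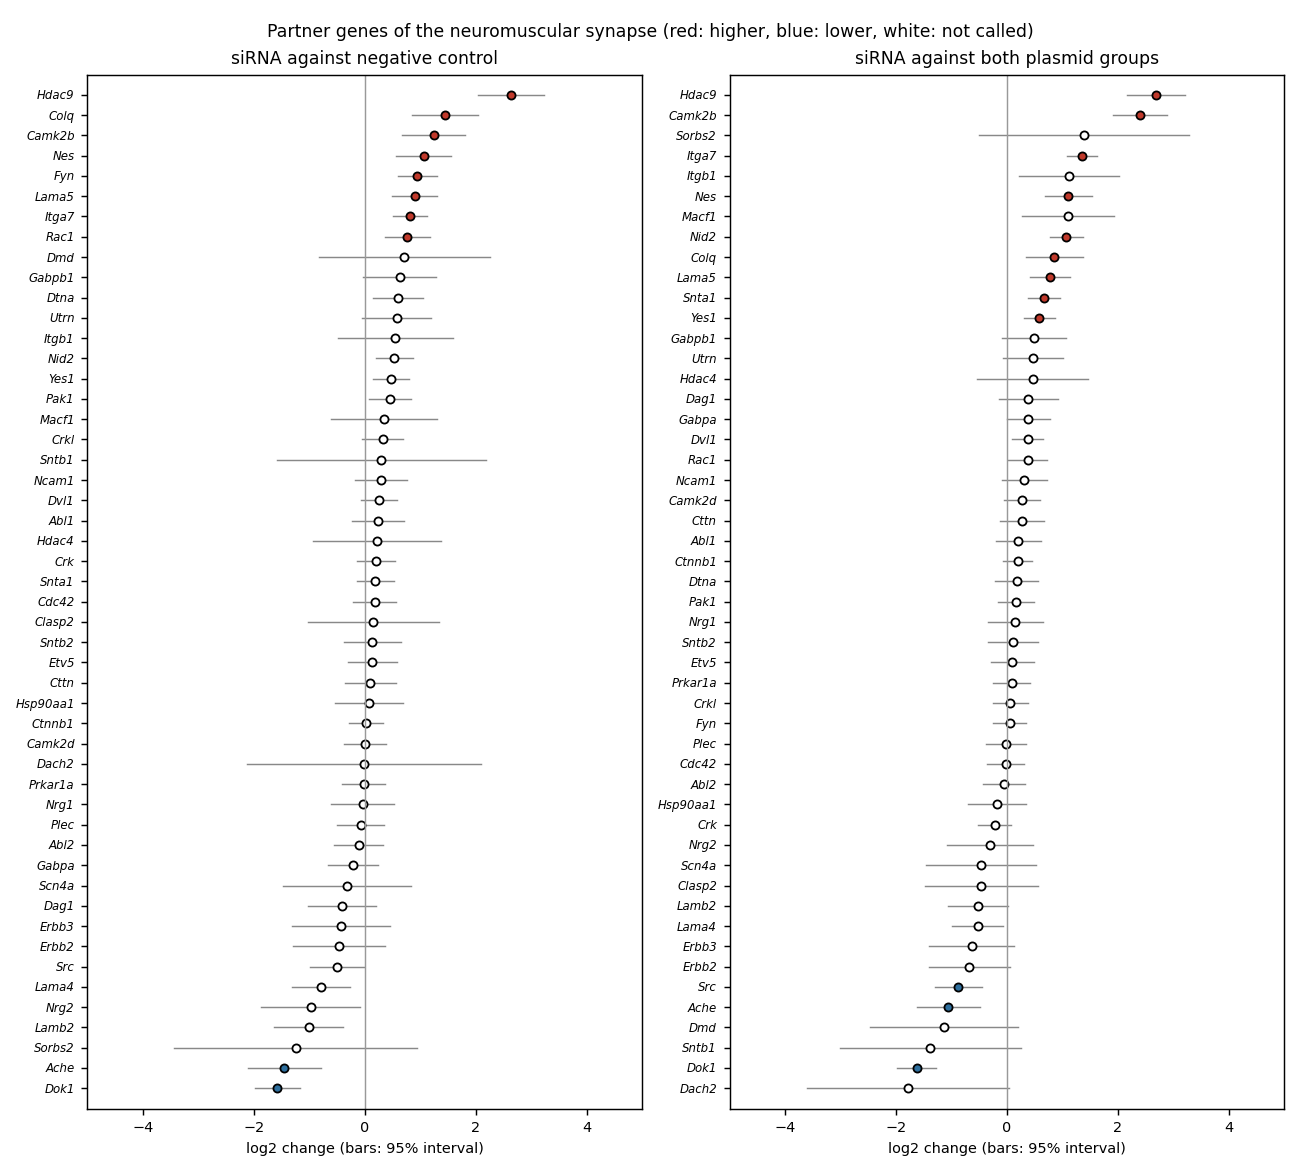
Log2 change (x axis) of the tested partner genes, with 1 gene not shown, with siRNA against the negative control (left) and against both plasmid groups (right), sorted within each panel; bars are 95% intervals, red is higher, blue is lower and white is not called. Hdac9 is highest in both panels, Dok1 and Ache are blue in both, and most genes are white.

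Neuronal nicotinic subunits form other acetylcholine receptors, mostly in neurons, and 5 of the 11 listed were kept. With siRNA against the negative control none passed, where 12.4% of all genes were called. Chrna2 differed by -0.44 and Chrnb4 by 0.26. Chrna6 differed by -0.85 and Chrnb2 by -0.29, both well above background on 1 of 3 siRNA arrays, and Chrna5, not well above background in either group, gets no fold. At an unadjusted p the smallest of these was 0.171, for Chrnb4. In the plasmid groups against the negative control Chrna2 fell by 1.07 on the log2 scale (adjusted p = 0.0474) and the other 4 did not pass. There 21.8% of all genes were called. None passed between the plasmid groups or with siRNA against both plasmid groups, where 0.00814% and 18.7% of all genes were called.

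Factors that act on receptor promoters were taken from a list of 13 genes, all kept. With siRNA against the negative control 4 were higher and 1 lower, which is 30.8% and 7.69%, against 7.75% and 4.65% of all genes. The myogenic factors Myog, Myod1 and Myf6 rose by 3.46 ± 0.15, 2.29 ± 0.35 and 1.19 ± 0.15 (adjusted p = 4.1e-04, 0.0157 and 0.0089). Myf5, the factor most typical of proliferating myoblasts, fell by 2.87 ± 0.33 on the log2 scale (adjusted p = 0.0067). Id2, an inhibitor of E-box factors, rose by 0.70 (adjusted p = 0.0353). The E-proteins that pair with myogenic factors did not pass: Tcf3 differed by 0.05, Tcf12 by 0.45 and Tcf4 by 0.64. Id1 differed by 0.48, Id3 by -0.12, Sp1 by 0.43, and the ETS genes Gabpa by -0.21 and Etv5 by 0.14, and none passed.

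None of the 13 factors was called between the plasmid groups, where 0.00814% of all genes were called. In the plasmid groups against the negative control Myog rose by 0.51, and Myf5, Id2 and Gabpa were lower by 4.62, 0.97 and 0.60 log2 units (values -4.62, -0.97 and -0.60). That is 7.69% higher and 23.1% lower, against 13.3% and 8.57% of all genes. With siRNA against both plasmid groups 6 factors were higher: Myog by 2.96, Myod1 by 2.01, Myf5 by 1.76, Id2 by 1.67, Myf6 by 0.87 and Id1 by 0.51. That is 46.2%, against 10.6% of all genes. Myf5 was well above background on only 3 of the 6 plasmid arrays. Its changes in both of these comparisons therefore rest on plasmid values near background. Gabpa, a subunit of the N-box binding factor, differed by 0.39 and did not pass.

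Cell markers also differed between the groups. Of 6 myotube markers (Myog, Ckm, Acta1, Myh3, Tnnt3 and Mymk) 6 were higher with siRNA than in the negative control, against 7.75% of all genes. Their summed signal, in multiples of the 75th percentile of each array, was 27.8 to 29.3 with siRNA, 2.42 to 2.44 with pcDNA3.1-MEG3, 1.79 to 1.93 with pcDNA3.1 and 7.44 to 8.42 in the negative control. Most of the negative control sum was Acta1, with mean scaled log2 signals of 2.86 there, 0.30 with pcDNA3.1-MEG3 and -0.20 with pcDNA3.1. In the plasmid groups against the negative control 4 of the 6 were higher and 1 was lower, with a median change of 0.82. That is 66.7% and 16.7%, against 13.3% and 8.57% of all genes. The part of the myotube markers in the changes of the receptor genes was not tested. In RNA from whole cultures, more cells of a type and more RNA per cell cannot be told apart. Of 5 myoblast markers, Cdh15, Des and Myod1 were detected on all 12 arrays. Cdh15 and Myod1 were higher with siRNA than in the negative control and Myf5 was lower, and the summed signal was 3.39 to 3.56 with siRNA, 1.66 to 1.77 with pcDNA3.1-MEG3, 1.15 to 1.18 with pcDNA3.1 and 1.46 to 1.77 in the negative control.

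The partner cells of a synapse were looked for as well, since the culture should hold no nerve. Of 4 motor neuron markers on the array, Chat and Isl1 were at background on all siRNA arrays, and Slc18a3 and Tubb3 were detected on all of them. Chat was detected on all 3 negative control arrays and was at least 3.93-fold lower with siRNA (adjusted p = 0.0430). It passed the filter on dim probes through the negative control alone, so this difference rests in part on that filter. Tubb3 rose by 1.96 with siRNA (adjusted p = 0.0015). The motor neuron list summed to 0.448 to 0.557 with siRNA, 0.304 to 0.315 with pcDNA3.1-MEG3, 0.313 to 0.360 with pcDNA3.1 and 0.205 to 0.297 in the negative control. Of 5 Schwann cell markers, 4 were detected on all 12 arrays, Sox10 among them, and S100b only on the 3 negative control arrays, and the list summed to 0.469 to 0.510 with siRNA, 0.321 to 0.324 with pcDNA3.1-MEG3, 0.362 to 0.387 with pcDNA3.1 and 0.289 to 0.394 in the negative control. Of 5 fibroblast markers, Dcn, Lum and Pdgfra were detected on all 12 arrays and Dpt on none. None was called with siRNA against the negative control, where 12.4% of all genes were called. Dcn and Lum differed by -0.64 and -1.42 in the plasmid groups against the negative control (adjusted p = 0.0143 and 0.0130). The list summed to 35.6 to 37.0 with siRNA, 21.5 to 22.3 with pcDNA3.1-MEG3, 26.7 to 27.4 with pcDNA3.1 and 35.005 to 38.5 in the negative control. Most of each sum was Dcn. Its mean scaled log2 signals were 5.08, 4.26, 4.54 and 5.04 in the same order. Endothelium markers summed to between 0.905 and 1.34 and macrophage markers to between 0.327 and 0.631 in all samples. Of the 3 macrophage markers kept, Csf1r rose by 0.81 with siRNA against the negative control (adjusted p = 0.0342), and Adgre1 and Ptprc differed by -0.33 and -0.29 and did not pass. The part of these markers in the results was not tested.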

How the data were processed

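Gene expression was measured on 12 single-colour Agilent mouse arrays, 3 per transfection group. Per the file headers, Agilent Feature Extraction 11.0.1.1 gave each spot a background-subtracted intensity on a linear scale, and flags of 0 or 1 mark spots well above background, outlying or saturated. The deposited series table, used as an alternative, holds linear intensity values whose scaling the headers and labels do not describe.

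Control spots (1377 of 44397 per array) and outlying spots were dropped, and repeat spots of 1 probe were averaged. The log2 of the deposited processed intensity had the 75th percentile of its array subtracted. Of 39429 probes, 27234 matched a gene symbol in a RefSeq table, used for names and promoters only, and the others kept the files' names. Probes well above background on all 3 arrays of at least 1 group were kept (29610), and the brightest probe stood for its gene (24573 genes). Replicates 1 and 3 were averaged. In the siRNA and plasmid groups they shared a slide position and differed by 0.265 to 0.363 times the spot noise. There they were taken as repeat scans, which the labels do not state. In the negative control they differed by 0.859 times the spot noise. They were at slide positions 2 and 4 of 1 scan session there, so they were separate hybridisations. The block for hybridisation also counted them as 1. Replicates 1 and 2 of the pcDNA3.1-MEG3 and pcDNA3.1 groups were as close as spot noise too (0.962 and 1.07 times) and were kept apart. One fit over all 8 samples used limma 3.58.1 in R 4.3.3 (lmFit and eBayes, two-sided, 4 residual degrees of freedom), with Benjamini-Hochberg adjustment over all genes. It was tested on simulated data. Genes with a sample whose every spot was outlying were tested only where an estimate was left.

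The genes and lists were chosen with earlier results of these data known. Named from the lists were, for the partner genes, the 5 highest and 5 lowest called in the first comparison and the 3 highest and 3 lowest in the others; for the neuronal subunits and the factors, every gene kept; for Chrna1 and Musk, the 5 genes most correlated; and every Meg3 probe. A gene of the partner list that this rule names is counted but not reported here. Alternatives covered the counting of repeat scans, blocks for hybridisation and scan session, the samples in the fit, scaling, background correction (normexp, offset 50, on the median spot signal), the filter, the probe, the deposited table, a replicate block and left-out samples.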

Additional observations from a re-analysis of the deposited data

How the results depend on the processing

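Over 680 values of the 10 genes under alternative settings, 566 kept direction and side of the threshold, 48 passed it only there, 40 passed it only in the reported fit and 26 changed sign. The number of the 10 genes called with siRNA against the negative control was 4 as reported, 8 with scan session as a random block (estimated correlation -0.32) and 0 with the compared groups alone, which leaves fewer samples. Between the plasmid groups it was 0 as reported, 2 with 12 arrays as 12 samples and 1 (Musk) with scan session as a random block over the 12 arrays. For the plasmid groups against the negative control it was 3 as reported, 7 with 12 arrays, 10 with scan session as a block, 5 with the compared groups alone, 5 with median centring, 1 with normexp and between 0 and 6 without 1 sample. It was 5 with negative control replicates 1 and 3 as 2 samples and replicate 2 left out, an alternative chosen after seeing the data. For siRNA against both plasmid groups it was 5 as reported, 8 with 12 arrays, 9 with scan session as a block and between 3 and 4 without 1 sample. The cause of these differences in counts was not tested. Over all genes the calls ran from 159 to 14332 against 3040 as reported, from 0 to 3009 against 2, from 1700 to 19686 against 5365 and from 1648 to 17163 against 4595, in the same order of comparisons.

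Replicate numbers did not pair the samples (correlations of deviations between -0.11 and 0.04), and with a replicate block 3, 0, 3 and 5 of the 10 genes were called in the same order. Only the Chrnb1 call with siRNA against the negative control was lost there (adjusted p = 0.0613).

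Median centring moved the median of all genes by -0.19 with siRNA against the negative control, -0.42 for the plasmid groups against the negative control and 0.23 for siRNA against both plasmid groups. The share of calls that were higher was 41.1%, 18.2% and 78.4% there, against 62.5%, 60.8% and 56.5% as reported. Quantile normalisation gave 62.4%, 46.0% and 68.6%.

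Most changes of sign were of values near 0. With siRNA against the negative control, Musk was -0.0885 with median centring, Lrp4 was -0.124 with negative control replicates 1 and 3 as 2 samples, and leaving out 1 sample gave -0.124 (negative control replicate 2) to 0.506 for Lrp4 and -0.504 to 0.0506 (replicates 1 and 3) for Agrn. Between the plasmid groups, median centring gave 0.00702 for Agrn, 0.0376 for Chrnd, 0.0398 for Chrng and 0.0306 for Lrp4. Quantile normalisation gave 0.0312 for Agrn and 0.0671 for Chrng, and the deposited values gave 0.0380 for Agrn and 0.0694 for Chrng. Leaving out 1 sample gave -0.0974 to 0.0592 for Chrnd, -0.185 to 0.151 for Chrng and -0.0749 to 0.0227 for Lrp4. For the plasmid groups against the negative control, median centring gave -0.118 for Chrna1, -0.283 for Chrnb1 and -0.0417 for Chrng. Quantile normalisation gave -0.104 for Chrnb1 and -0.0578 for Chrng, and the deposited values gave -0.109 for Chrnb1 and -0.0593 for Chrng. Leaving out 1 sample gave -0.433 (negative control replicates 1 and 3) to 0.705 for Chrnb1. With siRNA against both plasmid groups, leaving out 1 sample gave -0.166 (siRNA replicate 2) to 0.527 for Chrng.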
